A study of Mus musculus with 21 samples.

Results

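Mitochondrial fatty acid oxidation was followed through 10 genes, Cpt1a, Slc25a20, Cpt2, Acadvl, Acadl, Acadm, Hadha, Hadhb, Hadh and Acaa2, which were chosen by name from the 17516 gene symbols listed in every count table. All 10 were found in all 21 libraries. The cells were OT1 T cells, mouse CD8 T cells that carry a transgenic receptor for an ovalbumin peptide. One library of single cells was made from naive cells on day 0. The other 20 came from cells activated with beads coated with antibodies to CD3 and CD28 and then grown without added cytokine (days 3 and 5), or with wild type IL-2, IL-2v or IL-15 at a low dose of 5 IU/mL or a high dose of 50 IU/mL (days 3, 5 and 10). IL-2v is labelled as a mutant IL-2bg. By title 3 libraries had high-dose IL-2, but their treatment label names Interleukin-3, and the 3 with high-dose IL-15 by title carry the label Interleukin-16. Titles were followed for these 6 libraries. The labels name sorted tumour-infiltrating cells in one protocol and cultured cells in another, and give no animal, age or batch.

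Each condition had 1 library; no test was run and no p-value is given. Levels are UMI counts (unique molecular identifiers, which mark single captured RNA molecules) scaled to a library total of 1000000 UMIs, abbreviated CPM. Each interval in brackets is the exact 95% Poisson interval of the count and covers counting error only. A gene was compared, in a given comparison, where it reached 20 CPM in either arm, and was called higher or lower where log2(CPM + 1) differed by at least 1.5-fold. Where a comparison held several pairs of libraries, a call also needed the same sign in every pair and was made on the median pair. The scale understates the change of low genes. The libraries held 3250 to 7105 cells and 10589950 to 32648496 UMIs, with a median of 3016 to 5065 UMIs per cell. Cd3d, a subunit of the T cell receptor complex, had a UMI in 93.0% to 99.5% of cells and Cd8b1 in 54.5% to 92.0%, with Cd8a in 37.0% to 74.2%. Of the B cell markers, Pax5 was at 0 in all 21 libraries and Ms4a1 in 20, while Cd79a (0.0393% to 0.489% of cells) and Cd79b (0.727% to 7.45%) had UMIs in all 21. Of 7 myeloid markers, Lyz2, Csf1r, Adgre1, C1qa and C1qb were each at 0 in 20 libraries, while Cd68 had UMIs in all 21 (0.385% to 7.39% of cells) and Itgam in all but 1 (at most 1.66%). Of the CD4 T cell markers, Cd40lg was found in at most 3.06% of cells, Cd4 in at most 1.49% and Foxp3 in at most 0.147%. The part of other cells in the results was not tested beyond leaving out cells with such markers. Cells with a UMI of Mki67 or Top2a, called cycling here, made up 3.01% of the naive library and 5.21% to 86.9% of the others. No 2 libraries shared more than 19 cell barcodes.

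Long-chain fatty acids enter mitochondria as carnitine esters. Cpt1a, the rate-limiting carnitine palmitoyltransferase of the outer membrane, forms the ester, Slc25a20, the carnitine-acylcarnitine translocase, carries it across the inner membrane, and Cpt2 turns it back into an acyl-CoA. Each turn of beta-oxidation then starts with a dehydrogenase matched to chain length, Acadvl for very long, Acadl for long and Acadm for medium chains. Hadha and Hadhb are the alpha and beta subunits of the mitochondrial trifunctional protein, which carries out the following steps on long chains, while Hadh, a hydroxyacyl-CoA dehydrogenase for shorter chains, and Acaa2, a thiolase, work on products that have been shortened. In CD8 T cells the pathway is best known from memory cells, while recently activated cells are known for glycolysis.

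Promoters of 3 genes are shown because their genes moved apart in these libraries: Hadhb, whose start lies next to that of Hadha, and the dehydrogenases Acadl and Acadm. Each window spans the RefSeq start of the gene, lies mostly upstream of it and is read on the gene's strand (RefSeq, GRCm38.p6). The Hadhb window is chr5:30155003-30155302 on the plus strand, and its capitals mark the 228 bases that also lie in the Hadha window, read there on the minus strand. The Acadl window is chr1:66863260-66863559 and the Acadm window chr3:153944594-153944893, both on the minus strand. Capitals in Acadl mark GC boxes, GGGCGG on either strand, and Acadm held none of the motifs searched.
Hadhb: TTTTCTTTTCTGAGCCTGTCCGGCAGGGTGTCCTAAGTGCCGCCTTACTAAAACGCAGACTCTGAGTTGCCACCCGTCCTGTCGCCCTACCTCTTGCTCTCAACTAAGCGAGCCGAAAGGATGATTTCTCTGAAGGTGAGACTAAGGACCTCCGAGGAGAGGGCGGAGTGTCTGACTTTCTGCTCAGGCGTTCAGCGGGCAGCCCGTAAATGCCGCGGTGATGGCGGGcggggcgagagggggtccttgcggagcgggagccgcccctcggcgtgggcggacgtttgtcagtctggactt
Acadl: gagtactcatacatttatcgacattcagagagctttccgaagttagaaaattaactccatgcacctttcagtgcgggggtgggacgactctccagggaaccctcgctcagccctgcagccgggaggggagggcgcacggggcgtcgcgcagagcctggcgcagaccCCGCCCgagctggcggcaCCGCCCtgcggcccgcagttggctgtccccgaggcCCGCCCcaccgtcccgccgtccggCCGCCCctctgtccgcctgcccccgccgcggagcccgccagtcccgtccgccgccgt
Acadm: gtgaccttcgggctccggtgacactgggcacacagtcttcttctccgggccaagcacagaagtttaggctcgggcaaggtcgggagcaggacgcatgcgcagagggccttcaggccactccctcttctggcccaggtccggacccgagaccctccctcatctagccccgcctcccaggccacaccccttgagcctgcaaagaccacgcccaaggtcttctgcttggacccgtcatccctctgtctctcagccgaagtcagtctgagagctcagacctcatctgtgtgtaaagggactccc

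Hadha (chr5:30118304-30155162, minus strand) and Hadhb (chr5:30155248-30184593, plus strand) are arranged head to head in the GENCODE annotation of the same build, with their first bases 86 bases apart. The Acadl, Hadhb and Hadh windows each held 4 GC boxes, which the capitals mark in Acadl alone. The GC content was 70.3% for Acadl, 62.3% for Acadm and 60.7% for Hadhb, above the median of 52.7% over 32851 promoter windows. Promoters were matched for 9 of the 10 genes, all but Acaa2. A GC box was found in 7 of the 9 (Cpt1a, Slc25a20, Cpt2, Acadl, Hadha, Hadhb and Hadh) and in 35.7% of 32851 promoter windows of the same length. The Hadha box is also a Hadhb box, since it lies in the bases their windows share. That site is thus counted for both genes. CCAAT, on either strand, was found in 2, Cpt1a and Hadh, and in 37.4% of all windows. The PPAR direct repeat, the ERR element TCAAGGTCA, the NRF1 site, the CREB site TGACGTCA and the E-box CACGTG were each searched on both strands and found in 0 of the 9 windows. The shares over all windows ran from 0.0396% for the PPAR repeat to 7.15% for the E-box. No searched motif is contained in another. These letters describe the windows and are not evidence of binding.

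**Figure D1:**
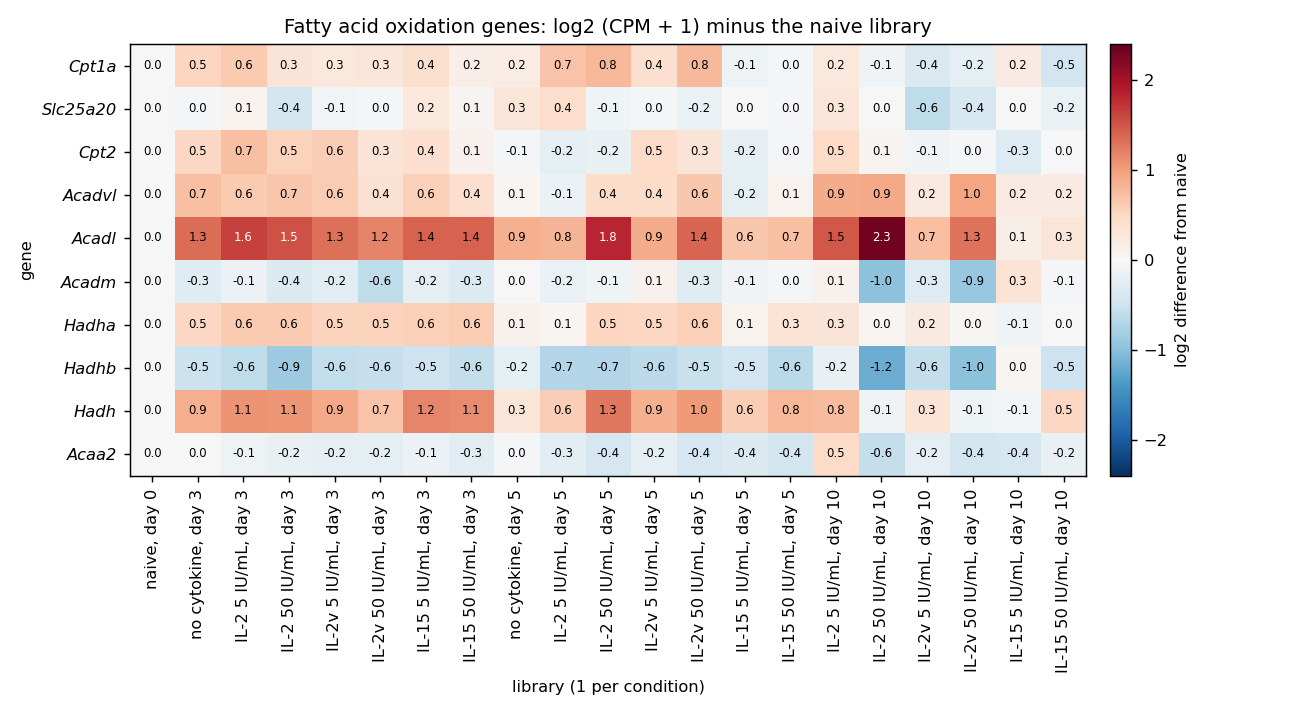
Log2(CPM + 1) of each of the 10 fatty acid oxidation genes (rows) in each of the 21 libraries (columns), minus its value in the naive library; red is higher and blue lower than naive. The Acadl row is red throughout and darkest in high-dose IL-2 on day 10 (2.31), the Hadhb row is blue in most columns, and the column of low-dose IL-15 on day 10 is close to white in most rows.

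The carnitine shuttle genes were counted thinly in every library. Cpt1a was at 13.3 CPM (11.7 to 15.1) in naive cells, 19.4 without cytokine on day 3 and 15.2 on day 5. Over the 9 low-dose libraries it ran from 10.2 to 22.1 CPM with a median of 16.1, and over the 9 high-dose libraries from 9.38 to 24.0 with a median of 15.0. Its highest library was high-dose IL-2 on day 5, at 24.0 CPM (21.1 to 27.1), followed by high-dose IL-2v on day 5 at 23.6, and its lowest was high-dose IL-15 on day 10. Low-dose and high-dose libraries overlapped for this and for each of the other 9 genes. Each of these groups pools all cytokines and days, and the share of all genes that overlap in this way was not computed. In the order of the 21 libraries, each of the 20 neighbouring pairs had overlapping intervals for Cpt1a, Slc25a20 and Cpt2; libraries farther apart in these orders could still differ beyond counting error. Slc25a20 was at 15.0 CPM in naive cells and ran from 9.53 (low-dose IL-2v, day 10) to 20.3 (low-dose IL-2, day 5). Cpt2 was at 6.39 CPM in naive cells and ran from 4.93 (low-dose IL-15, day 10) to 11.1 (low-dose IL-2, day 3). The other isoforms of the first step were counted less often still, with at most 1.75 CPM for Cpt1b, the muscle form, and at most 1.64 for Cpt1c, the brain form.

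Of the 10 genes, 7 reached a mean of 20 CPM over the libraries, and Cpt1a, Slc25a20 and Cpt2 did not. These 3 could be called only in the few comparisons where an arm reached the limit, so counts of calls below describe the genes compared and not the whole shuttle. In a pair where a single arm reached the limit, a gene could be called only as higher in that arm. Between the lowest and the highest library, the log2 levels of the 10 genes spread by a median of 1.21, against a median of 1.34 for the 5495 genes averaging 20 CPM or more. Acadl had the widest spread of the 10, at 2.31, wider than that of 83.9% of those genes. Hadha had the narrowest, at 0.72, wider than that of 5.20%.

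Acadl, the long-chain dehydrogenase, was lowest in the naive library, at 40.4 CPM (37.6 to 43.5), and higher in all 20 activated libraries. In low-dose IL-15 on day 10 Acadl exceeded naive only within overlapping intervals. Without cytokine it was at 104 CPM (99.9 to 108) on day 3 and 74.3 on day 5. With IL-2 at the high dose it was at 119 CPM on day 3, 147 on day 5 and 204 (199 to 210) on day 10, the highest value of the 21. At the low dose of IL-2 it was at 128, 72.2 and 115 CPM on the same days. High-dose IL-2v held it at 93.5, 109 and 102 CPM, and low-dose IL-2v at 102, 75.4 and 66.9. With IL-15 it was at 110, 67.7 and 50.0 CPM at the high dose and at 109, 63.6 and 44.9 at the low dose. The libraries were thus close together on day 3 and far apart on day 10, with high-dose IL-2 at the top and both IL-15 doses at the bottom.

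Acadm, the medium-chain dehydrogenase, had Pearson's r = -0.59 and Spearman's rho = -0.45 with Acadl over the 21 libraries. It was at 35.8 CPM (33.1 to 38.6) in naive cells, and its lowest values were in high-dose IL-2 on day 10, at 17.5 (16.0 to 19.2), and high-dose IL-2v on day 10, at 18.6 (17.0 to 20.3). The highest was low-dose IL-15 on day 10, at 45.2 CPM (42.5 to 48.0). The 9 high-dose libraries ran from 17.5 to 35.0 CPM with a median of 28.5, and 0 of the 9 was above naive. The 9 low-dose libraries ran from 28.5 to 45.2 CPM with a median of 32.6, and 3 were above naive. A part of its sequence, 5.98% of its 31-base words, is shared with the gene model Gm5131, and the effect of this on its counts was not tested.

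Acadvl, the very-long-chain dehydrogenase, was at 24.4 CPM (22.2 to 26.7) in naive cells and 40.6 (38.0 to 43.3) without cytokine on day 3. Its 3 highest libraries were on day 10, with 48.2 CPM in high-dose IL-2v, 46.7 in high-dose IL-2 and 45.8 in low-dose IL-2. Low-dose IL-2v (28.8 CPM) and both doses of IL-15 (28.1 low, 28.0 high) were well below these on the same day. Of its exonic bases, 42.9% overlap Dvl2 on the opposite strand, and reads of the pair cannot be told apart unless counting used strand, which the sources used here do not give. Dvl2 was at 16.5 CPM in naive cells, 11.2 without cytokine on day 3 and 6.20 to 12.7 in those 3 day 10 libraries. In low-dose IL-2 it was at 9.83 CPM on day 5 and 12.7 on day 10, where Acadvl was at 22.2 and 45.8. The part of Dvl2 reads in the Acadvl counts was not tested.

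**Figure D2:**
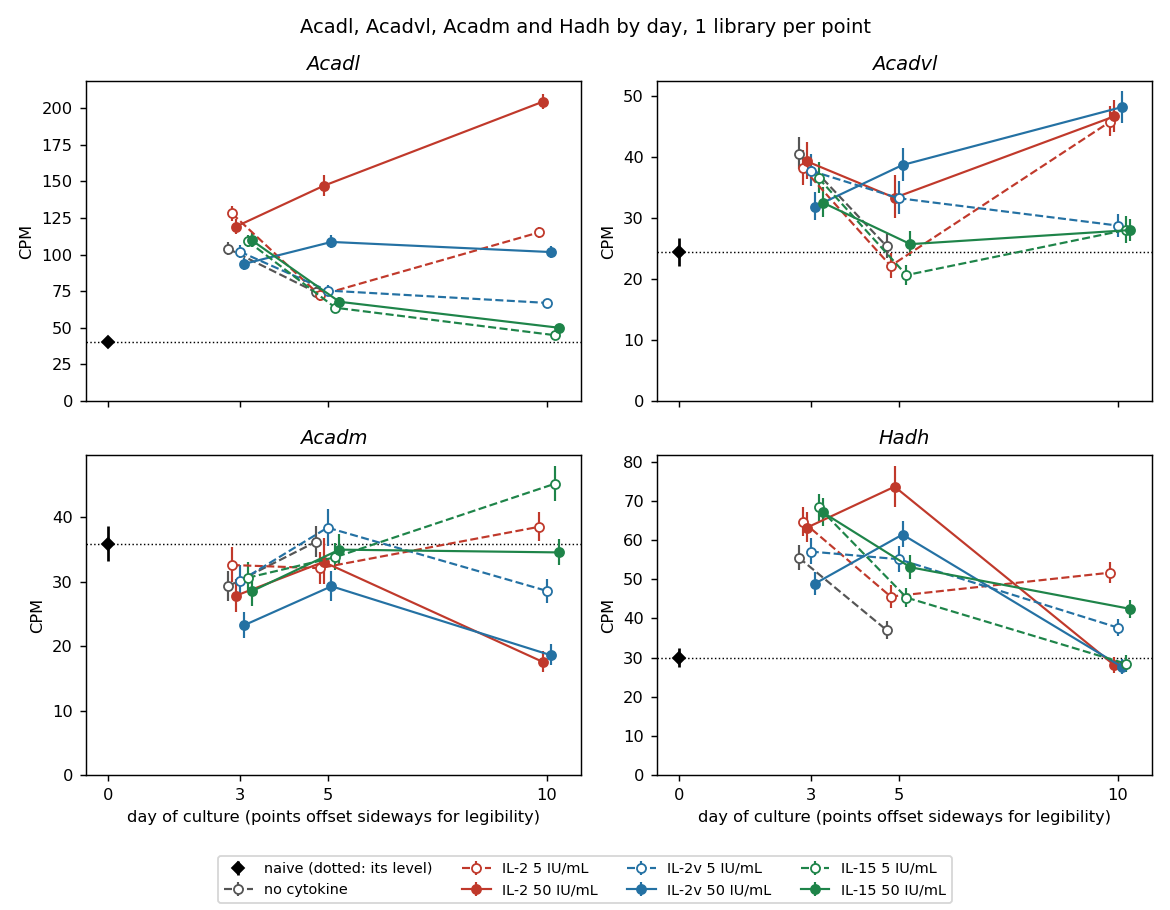
CPM (vertical axes, from 0) of Acadl, Acadvl, Acadm and Hadh against day of culture, 1 library per point, with 95% Poisson intervals; filled points and solid lines are 50 IU/mL, open points and dashed lines 5 IU/mL. The Acadl lines fan out from day 3 to day 10, when high-dose IL-2 is at 204 CPM and low-dose IL-15 at 44.9, while Acadm is lowest at the high doses of IL-2 and IL-2v on day 10.

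Hadha and Hadhb, whose products form 1 complex, did not change together. Hadha was at 61.6 CPM (58.1 to 65.3) in naive cells and at 87.1 (83.3 to 91.1) without cytokine on day 3, and all 7 day 3 libraries lay between 87.1 and 95.9. Hadhb was at 77.2 CPM (73.3 to 81.3) in naive cells and at 53.4 (50.4 to 56.5) without cytokine on day 3. Only low-dose IL-15 on day 10, at 79.8 CPM (76.2 to 83.5), was above naive for Hadhb, within overlapping intervals, and its lowest library was high-dose IL-2 on day 10, at 33.4 (31.3 to 35.7). The ratio of Hadha to Hadhb CPM was 0.798 in naive cells, 1.63 without cytokine on day 3 and 2.27 in high-dose IL-2 on day 3. It was 1.01 without cytokine on day 5, and was lowest, at 0.725, in low-dose IL-15 on day 10. The ratio was above 1 in 19 of 21 libraries. This does not show which of the 2 transcripts was more abundant, since the share of each that was captured and counted is not known. Only the change of the ratio between libraries is read here. Of the 31-base words of Hadhb, 19.5% occur in Gm13910 and 9.57% in Gm9108, and reads from those stretches may have been left uncounted or assigned elsewhere.

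**Figure D3:**
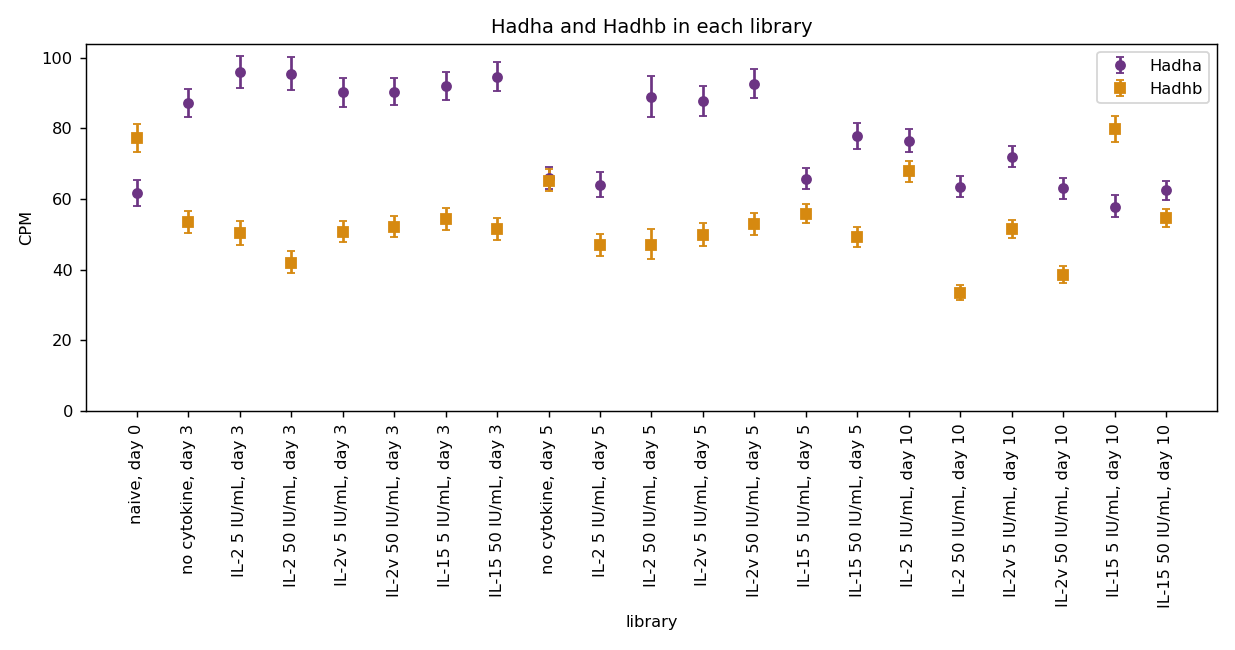
CPM of Hadha (circles) and Hadhb (squares) in each of the 21 libraries, with 95% Poisson intervals; the vertical axis starts at 0. Hadhb lies above Hadha in the naive library and in low-dose IL-15 on day 10, and the gap is widest on day 3 with high-dose IL-2 (95.4 against 42.0 CPM).

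Hadh was at 29.9 CPM (27.5 to 32.5) in naive cells and 55.5 (52.5 to 58.7) without cytokine on day 3. It was highest in high-dose IL-2 on day 5, at 73.7 CPM (68.6 to 79.0). On day 10 it was at 28.1 in high-dose IL-2, 27.6 in high-dose IL-2v and 28.4 in low-dose IL-15, all within the naive interval, and at 51.7 in low-dose IL-2. Acaa2 was at 64.2 CPM (60.6 to 68.0) in naive cells, 63.9 without cytokine on day 3 and 63.3 on day 5. Only low-dose IL-2 on day 10, at 88.7 CPM (85.4 to 92.2), exceeded naive, and high-dose IL-2 on the same day had the lowest value, 42.7 (40.3 to 45.2).

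By day 3 of activation without cytokine a part of the pathway was higher. Of the 7 genes compared, Acadl (log2 difference 1.34), Hadh (0.87) and Acadvl (0.71) were higher than in naive cells and 0 were lower, where 42.8% of 6171 genes compared were called, 19.6% higher and 23.2% lower. The call of Acadvl was lost with a pseudocount of 10 (0.56). Hadha, at 0.49, and Cpt1a, at 0.51, lay above naive and Hadhb, at -0.52, below, each short of 1.5-fold. Hadhb was called lower with totals without ribosomal and mitochondrial genes (-0.59). Slc25a20 (-0.02) and Acaa2 (-0.01) were level. The median of the 7 genes was 0.49 and that of all genes compared was -0.11. Cycling cells made up 3.01% of the naive and 60.0% of the day 3 library. Among the non-cycling cells the same 3 genes were called, with Acadl at 1.18, Hadh at 0.94 and Acadvl at 0.70. From day 3 to day 5 without cytokine Acadvl fell by 0.66 and was the 1 gene called of 7 compared, where 30.8% of 5785 genes were called, 18.3% lower and 12.5% higher. That call was lost under TMM scaling (-0.55).

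Other genes of the pathway were read from lists written with earlier results known. Among 16 other genes of mitochondrial beta-oxidation, 10 were compared on activation, 4 were higher and 0 lower, with a median of 0.53. They included Decr1, a dienoyl-CoA reductase (7.42 to 22.1 CPM), Acads, the short-chain dehydrogenase (25.7 to 61.6), and Eci2, an enoyl-CoA isomerase (28.3 to 59.4). Of the list for fatty acid uptake and activation, 2 of 4 compared were higher, the fatty acid binding protein Fabp5 (9.75 to 77.7 CPM) and the acyl-CoA binding protein Dbi (87.2 to 246). Among regulators, Esrra, a nuclear receptor that drives genes of oxidative metabolism, was lower, from 26.6 to 14.2 CPM, the 1 call of 3 compared. Scp2, of the peroxisomal list, was also lower, from 212 to 140 CPM, though 33.4% of its 31-base words occur in the pseudogene Scp2-ps2. Fatty acid synthesis had 8 of 11 compared higher and 0 lower and a median of 0.72, led by the desaturases Scd1, Fads2 and Scd2. In glycolysis 15 of 16 were higher, with a median of 2.33. The tricarboxylic acid (TCA) cycle had 7 higher and 1 lower of 21.

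The summed CPM of the 10 oxidation genes varied little. It was 368 in naive cells and ran from 357 (high-dose IL-15, day 10) to 528 (low-dose IL-2, day 10), a 1.48-fold span. The sum of 21 TCA cycle genes spanned 1.77-fold, that of 12 fatty acid synthesis genes 5.38-fold and that of 16 glycolysis genes 12.7-fold, from 1596 CPM in naive cells to 20299 in high-dose IL-2 on day 3. The sum for oxidation hid opposite movements: in high-dose IL-2 on day 10 it was 471 CPM, while Acadl stood at 5.06 times its naive level and Acadm at 0.490 times. A sum is weighted toward its highest genes.

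**Figure D4:**
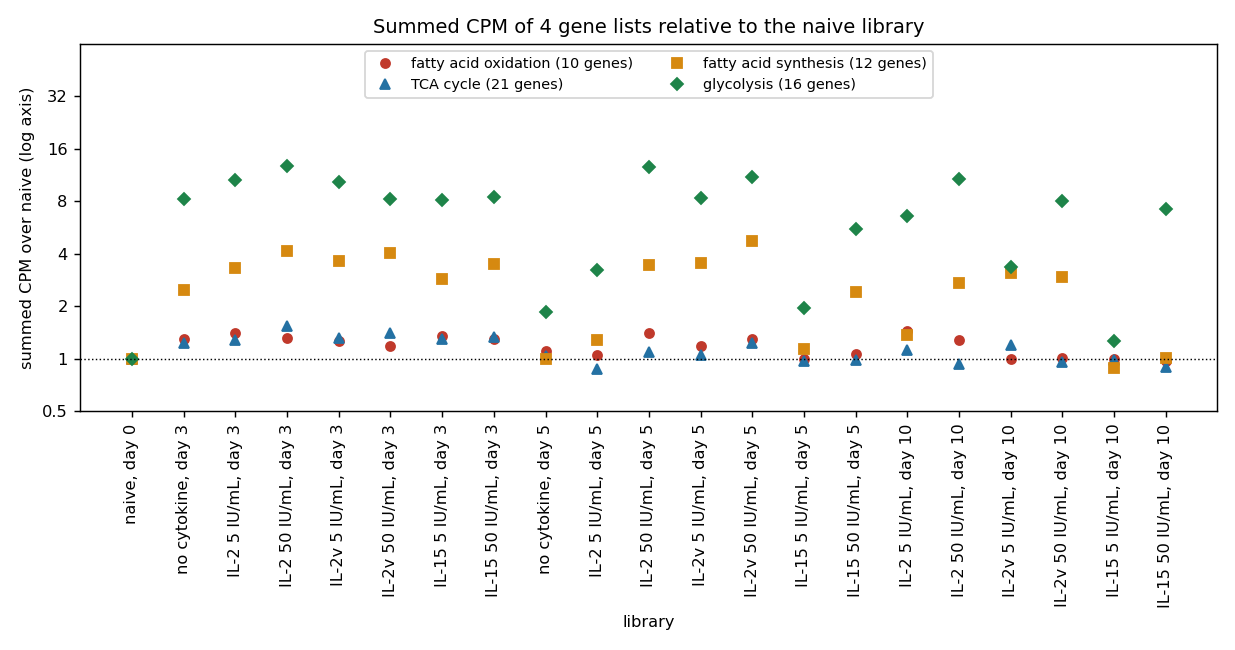
Summed CPM of 4 gene lists in each library, divided by the naive library's sum, on a log axis. The oxidation genes stay within 0.970 and 1.43 times naive in all 21 libraries, near the TCA cycle genes, while glycolysis reaches 12.7 times naive.

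Adding a cytokine gave 0 calls among these genes by day 3. The 6 cytokine libraries share the same library without cytokine as their control, so their values are not independent. In each of the 6 pairs 0 of the 7 or 8 genes compared were called. With IL-2, IL-2v and IL-15 at the low dose, 1.15%, 2.92% and 1.42% of genes were called higher and 0.266%, 0.599% and 0.623% lower, and at the high dose 20%, 22.4% and 5.35% were called higher and 7.48%, 6.48% and 0.959% lower. The median of the 7 compared genes over the 6 pairs lay within 0.01 of 0, against 0.10 for all genes compared. Over all 6 pairs together 0 were called, against 3.31% of 5772 genes called higher and 0.416% lower, 3.72% in all.

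On day 5 only the high doses of IL-2 and IL-2v gave calls against the library without cytokine. High-dose IL-2 had Cpt1a (log2 difference 0.62), Acadl (0.97) and Hadh (0.97) higher, 3 of 8 compared, where 28.4% of 6022 genes were called higher. High-dose IL-2v had Cpt1a (0.60), Acadvl (0.59) and Hadh (0.72) higher, again 3 of 8, where 35.9% of 6389 genes were. In both pairs Cpt1a passed the filter only through the cytokine library, so it could be called higher but not lower. Both shares of 3 in 8 are near their backgrounds, 0 genes were lower in either pair (18.5% and 13% of all genes were), and the other 4 pairs had 0 calls. Their backgrounds were 4.56% higher and 3.41% lower with low-dose IL-2, 20.8% and 8.89% with low-dose IL-2v, 3.78% and 3.25% with low-dose IL-15, and 15.1% and 8.83% with high-dose IL-15. Under TMM scaling the values fell to 0.48 for Cpt1a with high-dose IL-2 and to 0.28 for Cpt1a, 0.26 for Acadvl and 0.38 for Hadh with high-dose IL-2v, all below the limit. The same scaling called Hadhb lower with high-dose IL-2 (-0.61), and Hadhb (-0.63), Acaa2 (-0.72) and Acadm (-0.62) lower with high-dose IL-2v. High-dose IL-2v thus went from 3 higher and 0 lower to 0 higher and 3 lower, in different genes, and no called gene changed sign. The TMM factors were 1.18 for this library and 0.935 for its control, which lowers the difference of every gene. The share of all genes called in this pair under TMM scaling was not computed, so the change is not read as a result about these genes. Consistent calls over the 6 pairs numbered 0 of 7, against 11.6% of 5756 genes called higher and 6.88% lower, 18.5% in all. On the same day Etfa, a subunit of the flavoprotein that takes electrons from the dehydrogenases, was higher over the 6 pairs (median 0.77), as were the acyl-CoA synthetases Acsl4 (1.10) and Acsl5 (0.80).

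The dose of IL-2 gave the most calls on day 10. High-dose IL-2 against low-dose IL-2 then had Acadl higher (0.82; 204 against 115 CPM), and Acadm (-1.09; 17.5 against 38.5), Acaa2 (-1.04; 42.7 against 88.7), Hadhb (-1.0; 33.4 against 67.9) and Hadh (-0.86; 28.1 against 51.7) lower. These were 1 higher and 4 lower of 7 compared, where 12.5% of 5832 genes were called higher and 32% lower, and their median was below 0, as was that of all genes compared (-0.30). Acadm passed the filter there only through the low dose, so it could not have been called higher. Hadh lost its call under TMM scaling (-0.56). On day 5 the same contrast had Acadl (1.02) and Hadh (0.68) higher and 0 lower of 9 compared, where 28.3% of 5765 genes were called higher and 9.92% lower. Under TMM scaling Hadh again lost its call (0.49) and Slc25a20 was called lower (-0.69). Slc25a20 passed the filter only through the low dose, so it could not have been called higher. On day 3 there were 0 calls, where 11.9% and 6.69% of 6057 genes were called. Hadh thus lay on opposite sides of 0 on days 5 and 10, and over the 3 days together 0 of 7 genes were called, against 9.12% of 5879 called higher and 7.42% lower, 16.5% in all. Acadl became a consistent call when day 3 was left out, and Acadm and Hadhb when day 5 was.

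IL-2v at high against low dose shared 2 of its 3 calls on day 10 with IL-2, Acadl and Acadm. It had Acadvl (0.73; 48.2 against 28.8 CPM) and Acadl (0.60; 102 against 66.9) higher and Acadm (-0.59; 18.6 against 28.5) lower, of 7 compared, where 10.4% of 5618 genes were called higher and 17.5% lower. As with IL-2, Acadm passed the filter only through the low dose and could not have been called higher. The share of all genes called alike with both cytokines was not computed. Acadl and Acadm lie at the limit and lost their calls with a pseudocount of 10 (0.54 and -0.43). Over the 3 days 0 genes were called, against 5.26% of 5913 higher and 2.76% lower, 8.02% in all. On days 3 and 5 there were 0 calls, at backgrounds of 9.96% and 14.4% higher and 3.9% and 4.28% lower. The dose of IL-15 gave 0 calls on any of the 3 days, where 0.211%, 7.51% and 6.22% of genes were called higher and 0.0527%, 1.27% and 10% lower on days 3, 5 and 10, and 3.02% over the days together (2.44% higher, 0.579% lower). Under TMM scaling Hadh was called higher at the high dose of IL-15 on day 10 (0.69). Over the 9 dose pairs of the 3 cytokines, Acadl was above 0 in 7 (median 0.15). Acadm (-0.36) and Slc25a20 (-0.18) were below 0 in 7 and Acaa2 (-0.11) in 8. The remaining genes had at most 6 pairs of the same sign. The share of all genes with such signs was not computed.

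Between cytokines, Acadl was the 1 gene called consistently. It was lower with IL-15 than with IL-2 in 6 of 6 pairs of equal dose and day, with a median of -0.67 and a range of -2.01 to -0.12, 1 of 7 compared, where 3.45% of 5718 genes were called lower and 1.42% higher. The call rested on day 10: without that day the median was -0.20. On day 10 IL-15 gave 44.9 against 115 CPM at the low dose and 50.0 against 204 at the high dose. At the low dose on that day Acadvl (-0.69), Hadh (-0.84) and Acaa2 (-0.87) were also lower with IL-15, 4 of 7 in all, where 19.3% of 5820 genes were. At the high dose Acadvl (-0.72) was lower, while Acadm (0.94) and Hadhb (0.69) were higher, where 21.9% of 5555 genes were called lower and 22.4% higher. Acadm passed the filter in that pair only through IL-15, so it could not have been called lower. On day 5 Cpt1a was lower with IL-15 at the low dose (-0.81; 12.1 against 22.1 CPM) and at the high dose (-0.83; 13.1 against 24.0), together with Acadl at the high dose (-1.11), at backgrounds of 3.75% and 19.3% called lower. Cpt1a passed the filter there only through the IL-2 libraries, so it could not have been called higher. Day 3 had 0 calls, at backgrounds of 0.591% higher and 1.55% lower at the low dose and 6.75% and 9.86% at the high dose. With a pseudocount of 10 both calls of Cpt1a (-0.54 low, -0.56 high), both day 10 calls of Acadvl (-0.55 and -0.58) and that of Hadhb (0.57) were lost. With totals without ribosomal and mitochondrial genes Acadvl was at -0.49 at both doses on day 10, and Hadh (0.82) and Acaa2 (0.63) were called higher at the high dose.

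IL-2v against IL-2 gave 0 consistent calls of 7 compared, against 5.05% of 5839 genes called higher and 0.839% lower, 5.89% in all. On day 10 at the low dose all 10 genes were lower with IL-2v, from -0.09 for Hadha to -0.90 for Slc25a20. The median of all genes compared was also below 0, at -0.15. Acadl (-0.77), Acaa2 (-0.70) and Acadvl (-0.65) were called, 3 of 7 compared, where 22.2% of 5932 genes were called lower. The library of low-dose IL-2 on day 10 is the highest of the 21 for Acaa2 and for the summed level. Under TMM scaling Hadha was above 0, and Acaa2 (-0.53) and Acadvl (-0.49) lost their calls. At the high dose on day 10 Acadl alone was called (-1.0; 102 against 204 CPM), 1 of 6 compared, where 6.29% of 5227 genes were called lower. Day 3 had 0 calls, at backgrounds of 0.883% higher and 0.589% lower at the low dose and 6.94% and 6.47% at the high dose. Day 5 also had 0 calls, where 19.3% of genes were called higher and 3.51% lower at the low dose and 19% and 6.44% at the high dose. On day 5 TMM scaling called Slc25a20 lower at the low dose (-0.63) and Acadl at the high dose (-0.62). Slc25a20 passed the filter there only through IL-2, so it could not have been called higher. IL-2v against IL-15 also gave 0 consistent calls, against 7.75% of 5810 genes called higher and 2.07% lower, 9.81% in all. On day 10 at the high dose Acadl (1.01) and Acadvl (0.76) were higher and Acadm (-0.86) and Hadh (-0.60) lower with IL-2v, where 18.7% and 14.3% of 5526 genes were called. Hadh lost that call with a pseudocount of 10 (-0.48). Acadm passed the filter in that pair only through IL-15, so it could not have been called higher with IL-2v. At the low dose on that day Acadm (-0.64) and Hadhb (-0.62) were lower with IL-2v, where 17.8% of 5824 genes were. On day 5 Acadvl was higher at the low dose (0.66) and Acadl (0.67) and Cpt1a (0.81) at the high dose, at backgrounds of 17.1% and 21.7% called higher. Cpt1a passed the filter there through IL-2v alone, so it could not have been called lower. TMM scaling left 0 of these 5 calls of the low dose on day 10 and of day 5, and called Acadl higher at the low dose on day 10 (0.65). When day 3 was left out, Acadvl and Acadl became consistent calls.

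From day 5 to day 10, high-dose IL-2 had Hadh (-1.36), Acadm (-0.88) and Cpt1a (-0.88) lower and high-dose IL-2v had the same 3 lower, with Hadh at -1.12, Cpt1a at -1.0 and Acadm at -0.63. These were 3 of 8 compared each, where 34.2% of 5847 and 32.6% of 6147 genes were called lower. Cpt1a and Acadm passed the filter there only through day 5, so neither could have been called higher. Under TMM scaling Hadh kept its call in both series, while Acadm (-0.56 and -0.26) lost it in both. Cpt1a lost it by size with IL-2 (-0.57) and by the 20 CPM filter with IL-2v (-0.64). The same scaling made Acadl (0.81) and Acadvl (0.80) higher calls in high-dose IL-2, and Acadvl (0.69) in high-dose IL-2v. Low-dose IL-2 had Acadvl (1.02), Acaa2 (0.74) and Acadl (0.67) higher, 3 of 9, where 19.2% of 5652 genes were. Under TMM scaling Acadvl kept its call there, Acaa2 (0.58) and Acadl (0.50) lost theirs, and Cpt1a (-0.60) was called lower. Again Cpt1a passed the filter only through day 5 and could not have been called higher. The only call among the other 3 series was Hadh, lower with low-dose IL-15, where 7.6% of 5463 genes were called lower and 8% higher, and it was lost with a pseudocount of 10 (-0.53). Low-dose IL-2v and high-dose IL-15 had 0 calls, at backgrounds of 8.07% and 2.4% higher and 14.5% and 13.4% lower. Consistent calls over the 6 series numbered 0, against 5.04% of 5676 genes. From day 3 to day 5 consistent calls also numbered 0, against 10.7% of 5912 genes. In that interval Acadl was lower in low-dose IL-2 (-0.82), low-dose IL-15 (-0.77) and high-dose IL-15 (-0.69), and Acadvl in low-dose IL-2 (-0.76) and low-dose IL-15 (-0.79), at backgrounds of 25.6%, 20.4% and 11.8% called lower. High-dose IL-2, low-dose IL-2v and high-dose IL-2v had 0 calls, where 9.43%, 5.53% and 7.63% of genes were called higher and 18.4%, 7.49% and 5.88% lower. Acadl was at 119 and 147 CPM on the 2 days in high-dose IL-2 and at 93.5 and 109 in high-dose IL-2v. Under TMM scaling these 5 calls were lost and Cpt1a was called higher in high-dose IL-2 (0.60). Cpt1a passed the filter there only through day 5, so it could not have been called lower.

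Against the naive library, which all 6 day 10 comparisons share, Acadl was the 1 consistent call on day 10. It was higher in 6 of 6, with a median of 1.01 and a range of 0.15 to 2.31, 1 of 7 compared, where 6.39% of 5948 genes were called higher and 17.2% lower. The lowest difference, in low-dose IL-15, lay within overlapping intervals. High-dose IL-2 and high-dose IL-2v had the same 4 calls: Acadl (2.31 and 1.31) and Acadvl (0.91 and 0.96) higher, and Hadhb (-1.18 and -0.99) and Acadm (-0.99 and -0.91) lower. The backgrounds were 20.4% higher and 38.1% lower with IL-2, and 18.4% and 31.2% with IL-2v. The share of all genes called alike in both was not computed. Acadm passed the filter there only through naive cells, so it could not have been called higher. Low-dose IL-2 had Acadl (1.49), Acadvl (0.88) and Hadh (0.77) higher and 0 lower, at backgrounds of 19% and 15.3%, and low-dose IL-2v had Acadl (0.71) higher alone, at 18.2% and 23.7%. That call was lost among the non-cycling cells (0.57). Both IL-15 libraries had 0 calls of 7, where 4.23% and 6.52% of genes were called higher and 10.8% and 21.2% lower at the low and the high dose. In low-dose IL-15, the intervals of Acadm (42.5 to 48.0 CPM) and Acaa2 (45.4 to 51.1) nonetheless lay outside those of naive cells. High-dose IL-15 also departed from naive. Hadhb (54.6 CPM), Cpt1a (9.38) and Acaa2 were below their naive intervals, and Acadl (50.0), Hadh and Acadvl were above. The 0 calls thus do not place either library at the naive level. TMM scaling added Acadvl to the consistent calls, and called Hadh higher in high-dose IL-15 (0.75).

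Across the 21 libraries the 10 genes did not vary as 1 block. Correlations here are over log2(CPM + 1) of 21 libraries that share culture, days and depth, and are given as descriptions. Of 45 gene pairs, 33 had Pearson's r above 0. Their median was 0.19, close to the median of 0.12 between these genes and all genes averaging 20 CPM or more. The highest pairs were Hadha with Hadh (r = 0.89, Spearman's rho = 0.88), Acadm with Hadhb (0.79, rho = 0.59) and Acadvl with Acadl (0.75, rho = 0.76). Without the 2 libraries farthest from the median of the first gene these were 0.85, 0.62 and 0.78. Acadl and Hadhb had r = -0.67 (rho = -0.49), and -0.46 without naive and low-dose IL-15 on day 10. Hadha and Hadhb had r = -0.23, and 0.12 without those same 2 libraries. Hadha followed the percentage of cycling cells (r = 0.91), Hadh less closely (0.72), and Acaa2 did not (-0.02).

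The genes with the pattern most like a given gene, by Pearson's r over the 21 libraries among genes averaging 20 CPM or more, differed from one oxidation gene to the next. For Hadha they were Fzr1, an activator of the anaphase-promoting complex (r = 0.96), Nono (0.96) and the tubulin gene Tubb5 (0.95). For Acadl they were Chmp2a, of the ESCRT machinery (0.95), Litaf (0.94) and the transcription factor Irf8 (0.94). For Acadm they were Bod1l (0.94), Akap13 (0.92) and the topoisomerase Top2b (0.92), and for Hadhb Wdr33 (0.95), Sh3gl1 (0.92) and Elf2 (0.92). For Hadh they were 1110059E24Rik (0.93), Ddx19a (0.92) and Sytl1 (0.92). The closest genes for Acadvl were Tsta3 (0.87), Fkbp8 (0.86) and Cope (0.86), and Acaa2 had Rgs19 (0.81), Prkag1 (0.78) and Atg101 (0.76). For the 3 thinly counted genes the closest were at 0.82 for Cpt1a (Pip4k2a), 0.85 for Slc25a20 (Pgs1) and 0.85 for Cpt2 (Fdxr).

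Within libraries, cycling and other cells differed little. Cpt1a, Slc25a20 and Cpt2 averaged below 20 CPM in both classes and could not be called. In none of the other oxidation genes did the 21 libraries give a call, where 5.08% of 5772 genes were called higher and 0.121% lower in cycling cells. The median log2 difference, cycling minus other, ran from -0.22 for Acadm to 0.28 for Cpt1a, against 0.07 for all genes compared. Hadha was higher in cycling cells in 20 of 21 libraries (median 0.17; mean 82.7 against 73.0 CPM), and Acaa2 was lower in 20 of 21 (-0.14; 52.3 against 59.4 CPM). Acadl was higher in 16 (0.18) and Hadh lower in 17 (-0.11).

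**Figure D5:**
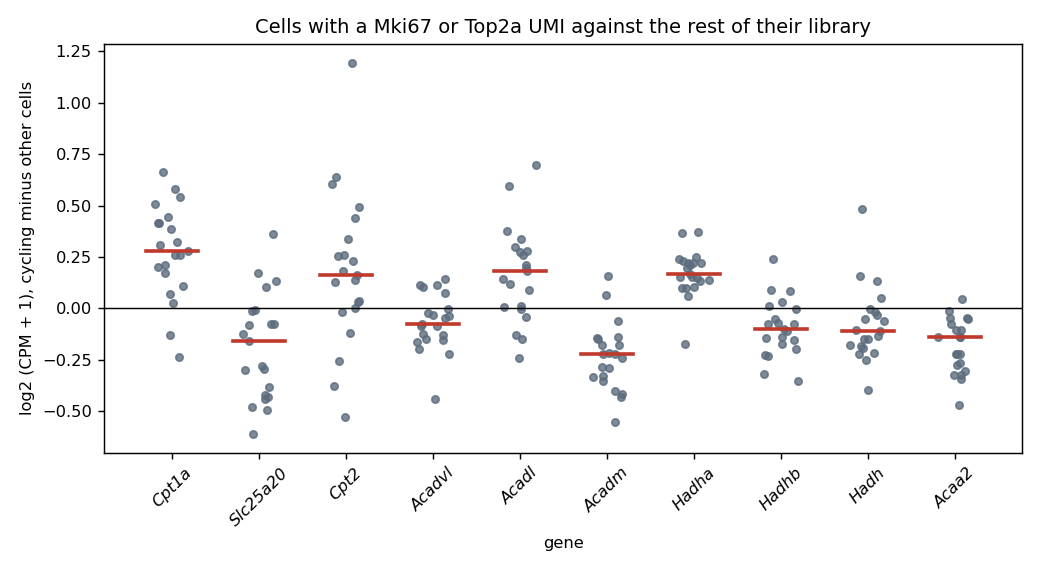
Difference in log2(CPM + 1) between cycling cells (a UMI of Mki67 or Top2a) and the other cells of the same library, 1 point per library and 21 per gene, with the median as a red bar. The medians lie between -0.22 and 0.28, the Hadha points lie above 0 in 20 of 21 libraries, and the points of Cpt2, the gene with the fewest UMIs of the 10, spread most.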

How the data were processed

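Single-cell RNA libraries of OT1 CD8 T cells were analysed from the authors' deposited counts, 1 table per library with whole-number UMI counts per gene symbol and cell barcode. Per the submitters' processing notes, the tools were Cell Ranger and Seurat (versions 4.0.1 and 3.0.2) and the genome build was mm10; the settings, the use of strand and any removal of doublets are not given in the sources used here. Groups came from the sample titles and the labels. No column of another series was found (0 columns left out).

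Filters of 1000 UMIs, 500 genes and 10% mitochondrial UMIs per cell removed 2 cells of the series and left 106456. UMIs were summed per library and gene and divided by the library total, which gave CPM. No doublet caller was run, and leaving out cells over 2 times their library's median UMIs was an alternative. Differences are of log2(CPM + 1), with a limit of 1.5-fold and a filter of 20 CPM in either arm. With 1 library per condition no model was fitted. Depth ran from 10589950 to 32648496 UMIs per library, and 95% Poisson intervals give the counting error alone.

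The 10 genes, the 10 other gene lists and the comparisons were chosen with earlier results of these data known. All 10 genes were named, and from each other list at most 3 called genes per comparison with the largest median difference. For likeness, the 3 genes with the highest Pearson's r to each member were named. The alternatives, 11 for every comparison and 3 that leave out a day, are described with their effects in the closing section. The symbols Slc27a2, Ppara, Ppargc1a and Prkaa2 of these lists were not analysed here. Gene positions came from GENCODE M21 and promoter windows from RefSeq (GRCm38.p6). TMM factors were computed with edgeR 4.0.16. The comparison function was tested on simulated counts.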

Additional observations from a re-analysis of the deposited data

How the results depend on the processing

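Each comparison was recomputed under 11 alternatives, and the comparisons within a day also without each day in turn. Of 700 member values, 73 were called, and over 8420 recomputed values 132 lost their call, 86 gained one and 0 changed sign while called. Only called values can lose a call, so the 132 are not to be read as a share of 8420. Under TMM scaling alone, 25 of the 73 calls were lost and 16 were gained. Keeping all barcodes changed no call of an oxidation gene, nor did removing cells that carried other lineages' markers. Both alternatives are weak checks, since the filters took out 2 cells of the series and the markers at most 0.775% of a library. TMM scaling shifted the median of all genes tested by 0.23 for day 10 against naive, where higher calls went from 380 to 719 and lower calls from 1021 to 534, by 0.15 for day 10 against day 5 (34 and 252 to 110 and 162), and by between -0.13 and 0.12 elsewhere. The percentage of calls that were higher went under TMM scaling from 88.8% to 67.6% (cytokine, day 3), 62.7% to 46.6% (cytokine, day 5), 40.5% to 53.9% (no cytokine, day 5 against day 3), 65.6% to 44.9% (IL-2v dose), 80.8% to 68.1% (IL-15 dose), 85.8% to 69.9% (IL-2v against IL-2), 78.9% to 60.9% (IL-2v against IL-15) and 21.5% to 40.5% (day 5 against day 3). With totals without ribosomal and mitochondrial genes it went from 88.8% to 77.7% (cytokine, day 3), 55.1% to 44.3% (IL-2 dose), 29.1% to 54.6% (IL-15 against IL-2), 78.9% to 58.2% (IL-2v against IL-15) and 11.9% to 23.6% (day 10 against day 5). Oxidation genes called consistently went from 3 to 1 for activation with a 2-fold limit. Without cytokine, day 5 against day 3, the 1 call became 0 under TMM scaling, a pseudocount of 10 and a 2-fold limit, and 2 in cells without Mki67 or Top2a. The IL-2 dose went from 0 to 1 with totals without ribosomal and mitochondrial genes and without day 3, and to 2 without day 5. The IL-2v dose went from 0 to 1 in cells without Mki67 or Top2a. IL-15 against IL-2 went from 1 to 0 at 2-fold and without day 10, IL-2v against IL-15 from 0 to 2 without day 3, and day 10 against naive from 1 to 2 under TMM scaling. Calls summed over single pairs went as follows. For cytokine against none on day 5, 6 became 3 (totals without ribosomal and mitochondrial genes, pseudocount) and 0 (2-fold). For the IL-2 dose, 7 became 3 (2-fold), and for the IL-2v dose 3 became 1 (pseudocount) and 0 (2-fold). For the IL-15 dose, 0 became 1 (without cells over 2 times the median UMIs, TMM, mean of single-cell CPM, no filter, cells without Mki67 or Top2a) and 2 (totals without ribosomal and mitochondrial genes). For IL-2v against IL-2, 4 became 7 (no filter) and 1 (2-fold), for IL-15 against IL-2, 11 became 6 (pseudocount) and 3 (2-fold), and for IL-2v against IL-15, 9 became 5 (TMM), 4 (pseudocount) and 1 (2-fold). For day 5 against day 3, 5 became 1 (TMM), 8 (no filter) and 0 (2-fold), for day 10 against day 5, 10 became 4 (2-fold), and for day 10 against naive, 12 became 4 (2-fold). The cause was not tested, except that a 2-fold limit and a larger pseudocount give fewer calls, and no filter more, by construction. Libraries were matched by dose and day, and an additive model over cytokine, dose and day could have been fitted but was not run. Cpt2, with 59 UMIs in its thinnest library, and the other shuttle genes are limited by depth.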

Other observations

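Etfb, the beta subunit of the electron transfer flavoprotein, which takes electrons from the acyl-CoA dehydrogenases, was the 1 gene of the other mitochondrial beta-oxidation list called in both dose comparisons of IL-2 (median log2 difference 0.61 over 3 days) and IL-2v (0.62), and it was higher with IL-2v than with IL-15 (0.86 over 6 pairs). Its level ran from 46.9 CPM in low-dose IL-15 on day 10 to 246 in high-dose IL-2 on day 10, the same library in which Acadl was highest. Hsd17b10, a mitochondrial hydroxyacyl-CoA dehydrogenase, was also highest there, at 219 CPM against a median of 70.4, a gene chosen after its values were seen. Etfdh, which passes these electrons on to the respiratory chain, was lowest in that same library, at 9.24 CPM against 14.2 in naive cells, and was likewise chosen after its values were seen. Of the exonic bases of Etfb, 53.0% overlap Gm45233 on the same strand, so its counts are uncertain.

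Crot, the peroxisomal carnitine octanoyltransferase, was the 1 gene of the carnitine list to reach the filter. It was higher on day 5 than on day 3 (median 0.73 over 6 pairs) and ran from 25.4 CPM in high-dose IL-2 on day 3 to 92.9 in low-dose IL-2 on day 10. Acaca, the acetyl-CoA carboxylase whose product malonyl-CoA is known to inhibit Cpt1a, was higher with IL-2v than with IL-2 (median 0.88; mean 29.3 against 16.4 CPM) and than with IL-15 (0.76), though 31.7% of its 31-base words occur in Gm5182.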
